A study of Homo sapiens with 34 samples.

Results

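LNCaP is a human prostate cancer cell line that grows in response to androgen. Regions that bore the repressive histone mark H3K27me3 in the androgen-dependent form of these cells (AD) and not in their androgen-independent derivative (AI) were described here, with the genes they cover. The regions were chosen from the peak lists themselves: the bases common to both AD H3K27me3 lists were taken, all bases in either AI H3K27me3 list were removed, and segments of 2 kb or more on chromosomes 1 to 22 were kept. This gave 3150 AD-only regions out of 30816 segments of any length, and 9.87 Mb of 30.2 Mb. Because the H3K27me3 lists chose the regions, their H3K27me3 is described and not tested.

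The AI cells were kept in RPMI1640 with charcoal-stripped serum, which lacks steroid hormones, and the AD cells were grown in RPMI1640. The 34 samples comprised H3K27me3 ChIP-seq (2 AI and 2 AD libraries), EZH2 ChIP-seq (1 AI and 2 AD), a matching input for each ChIP library, EZH2 and IgG RNA immunoprecipitation (RIP-seq, 2 libraries of each antibody in each cell form), and RNA-seq in 6 groups of 2 libraries: AI and AD cells left untreated, given a mock siRNA, or given an siRNA against EZH2 (siEZH2), the siRNA libraries being made 24 hours after transfection. The treatment note names the LNCaP/abl subline as the transfected cells, whereas siRNA libraries are titled for both AI and AD; the titles were followed. The labels do not say whether 2 replicates came from separate cultures, so p-values measure the spread between these libraries, which may be technical. AI and AD are each 1 cell population, so growth form and any other difference between these populations cannot be told apart.

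H3K27me3 is laid down by Polycomb repressive complex 2 (PRC2), whose catalytic subunit is EZH2 and whose core partners are SUZ12 and EED. The mark spreads over broad domains, is read by PRC1 complexes that compact chromatin, and is removed by the demethylases KDM6A and KDM6B. In differentiated epithelium it typically covers silent genes of other lineages, and CG-rich promoters of developmental genes are its best known sites. In prostate cancer EZH2 is often raised.

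The promoters of 5 genes that start at AD-only regions are shown because the expression results turn on them, or because the region is long. COL12A1 (collagen XII alpha chain, which binds the surface of collagen fibrils), UGT8 (the enzyme that makes galactosylceramide, a lipid of myelin) and TRIB2 (a pseudokinase of the Tribbles family) are the start genes with higher RNA in untreated AI cells. UNC13C (a Munc13 protein that primes synaptic vesicles) and GAD2 (glutamate decarboxylase, which makes the transmitter GABA) were added after their values were seen. Each sequence is the RefSeq GRCh38.p14 window of 250 bases before to 50 bases after the gene start, 5′ to 3′ on the gene's strand, with every CG in capitals. The windows are chr2:12716686-12716985 on the plus strand, chr4:114598152-114598451 on the plus strand, chr15:53978191-53978490 on the plus strand, chr6:75206004-75206303 on the minus strand and chr10:26216122-26216421 on the plus strand.
TRIB2: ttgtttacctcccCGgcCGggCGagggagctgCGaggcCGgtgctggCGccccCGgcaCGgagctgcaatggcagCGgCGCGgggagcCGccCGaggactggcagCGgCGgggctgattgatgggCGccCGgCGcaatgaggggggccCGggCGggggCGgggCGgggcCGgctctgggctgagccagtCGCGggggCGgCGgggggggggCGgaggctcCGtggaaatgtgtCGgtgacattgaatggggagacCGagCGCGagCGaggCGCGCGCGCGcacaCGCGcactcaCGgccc
UGT8: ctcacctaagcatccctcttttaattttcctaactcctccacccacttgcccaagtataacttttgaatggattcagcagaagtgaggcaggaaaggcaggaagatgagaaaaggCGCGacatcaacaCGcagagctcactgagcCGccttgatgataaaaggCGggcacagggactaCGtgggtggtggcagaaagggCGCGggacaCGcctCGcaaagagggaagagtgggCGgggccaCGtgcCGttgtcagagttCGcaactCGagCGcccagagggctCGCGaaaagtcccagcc
UNC13C: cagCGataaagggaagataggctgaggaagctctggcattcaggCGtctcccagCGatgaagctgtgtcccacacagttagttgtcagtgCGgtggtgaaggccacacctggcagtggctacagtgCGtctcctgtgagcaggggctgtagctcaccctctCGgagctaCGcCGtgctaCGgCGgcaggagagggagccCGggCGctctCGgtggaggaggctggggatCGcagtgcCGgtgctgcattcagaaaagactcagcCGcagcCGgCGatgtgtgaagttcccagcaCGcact
COL12A1: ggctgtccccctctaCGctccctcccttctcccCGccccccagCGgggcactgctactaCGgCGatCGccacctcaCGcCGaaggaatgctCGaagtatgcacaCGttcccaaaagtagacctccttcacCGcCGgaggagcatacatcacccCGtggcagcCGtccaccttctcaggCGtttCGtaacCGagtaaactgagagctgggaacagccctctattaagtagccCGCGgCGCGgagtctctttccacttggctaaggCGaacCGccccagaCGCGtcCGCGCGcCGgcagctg
GAD2: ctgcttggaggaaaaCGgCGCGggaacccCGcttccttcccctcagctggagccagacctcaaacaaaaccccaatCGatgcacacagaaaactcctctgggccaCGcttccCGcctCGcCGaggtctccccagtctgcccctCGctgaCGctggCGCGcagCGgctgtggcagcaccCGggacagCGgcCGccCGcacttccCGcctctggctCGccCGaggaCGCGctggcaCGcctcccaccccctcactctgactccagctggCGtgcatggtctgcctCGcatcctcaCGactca

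TRIB2 held 42 CG in its 300 bases, COL12A1 29, GAD2 27, UNC13C 19 and UGT8 18, so all 5 windows lay above the median of 14 CG over 33725 promoters. They are not typical of the whole set. The 130 promoters of genes that start at an AD-only region had a median of 5 CG, the 46 protein-coding ones among them 9.5, and 10 or more CG were found in 30.8% of the 130, in 50% of the 46 and in 56.3% of all promoters. The letters AGAACA or their reverse complement TGTTCT, a half-site of steroid hormone response elements, were in none of the 5 windows on either strand. They were in 23.1% of the 130 promoters, in 17.4% of the 46 and in 14.8% of all. The median share of G and C bases was 49.8%, 57.3% and 58.7% in these sets, and its part in the half-site shares was not tested.

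Length and surroundings of the regions came first. An AD-only region had a median length of 2627 bases (quartiles 2242 and 3388), 261 regions reached 5 kb and 36 reached 10 kb. The threshold cut through a dense part of the distribution: 1373 segments measured 2000 to 2499 bases, against 2717 in a span of the same size just below 2000 bases, the 10 shortest regions kept lay between 2000 and 2002 bases, and the 10 longest dropped between 1997 and 1999 bases. The regions made up 8.38% of the 118 Mb marked in both AD lists, while 74.4% of those bases were also in an AI list. The lists differ in size, which bears on what is left after subtraction: the autosomal peaks covered 226 and 212 Mb in AI cells and 228 and 183 Mb in AD cells, and AD replicate 1 had many narrow peaks (122813 with a median width of 1311 bases) where the other lists had 69763 to 72027 peaks. All lists had a lowest peak score of 50, the authors' own score per peak. Peaks under AD-only regions had median scores of 349 in AD replicate 1 and 288 in AD replicate 2, above the medians of 112 and 117 over all peaks of those lists and below the 520 and 405 of peaks under regions marked in all 4 lists. The minimum length favours wide peaks: median widths were 3647 and 3292 bases under AD-only regions, against 1311 and 1833 bases over the whole lists. The part of width in these scores was not tested.

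Of the 3150 regions, 433 (13.7%) touched an AI peak, and 1702 (54.0%) had no AI peak within 5 kb. The median gap to the nearest AI peak was 6397 bases, and for 472 regions (15.0%) it exceeded 50 kb. In the first 1 kb outside an AD-only region, peaks of the AI lists covered 7.55% and 4.58% of the bases, against 49.8% and 38.7% in the AD lists. At 10 to 20 kb the AI lists covered 15.5% and 12.6%, against 40.0% and 34.9% in the AD lists. The surroundings were therefore marked mainly in AD cells out to 20 kb. The lists that chose the regions also gave this coverage, and neighbouring AD-only segments contribute to it, so the choice of regions favours it. Beside regions found by the same rule with the cell forms exchanged (AI only), the order was reversed. There the AI lists covered 39.8% and 39.3% at 10 to 20 kb, against 20.2% and 15.4% in the AD lists.

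**Figure D1:**
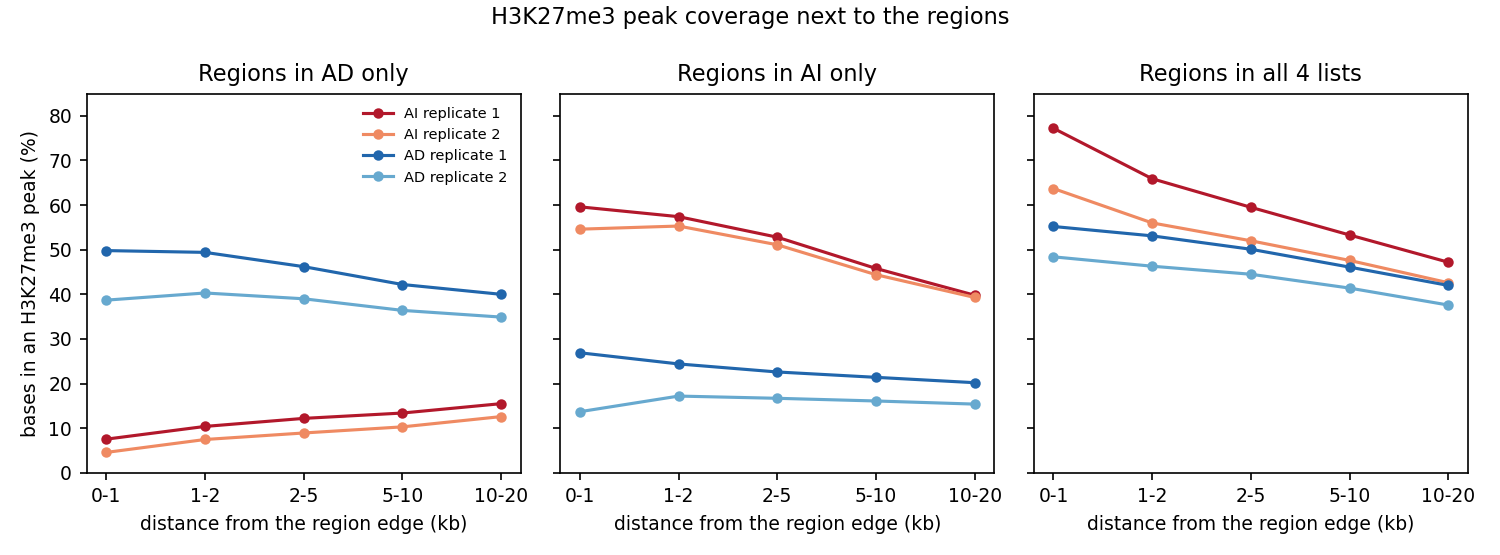
Share of bases inside an H3K27me3 peak (vertical axis, %) by distance from the edge of a region in kb (horizontal axis), for each of the 4 peak lists, next to regions in AD only, in AI only and in all 4 lists. Beside AD-only regions the AI lists lie between 4.58% and 15.5% and the AD lists between 34.9% and 49.8%.

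AD-only regions came in runs. With gaps of up to 50 kb allowed, the 3150 regions formed 1557 tracts: 1098 were single regions, and 252 tracts of 3 or more regions held 1638 regions (52.0%). The tract with the most AD-only sequence was at chr5:2982782-3907293 (925 kb, 70 regions, 298 kb of AD-only bases), around IRX1, a homeobox factor of embryonic patterning, and a group of long noncoding RNAs. Peaks covered 4.26% and 3.34% of it in the AI lists and 51.5% and 66.8% in the AD lists. Further along chromosome 5, tracts at chr5:3959425-4279401 and chr5:5538386-5869615 had 25 regions each. The tract next in AD-only sequence, chr22:27021302-27727616 (706 kb, 36 regions), was among 7 of the 12 largest tracts in which no region overlapped a protein-coding gene, as was the tract around IRX1. In 3 of the 12 most regions lay in 1 protein-coding gene. OPCML, a cell adhesion molecule, held 24 of the 28 regions at chr11:133176464-133608358, with 8.53% and 3.55% covered in AI and 66.6% and 50.7% in AD. NTRK3, the receptor for neurotrophin-3, held all 29 regions at chr15:87874482-88175346, with 4.23% and 1.10% covered in AI and 68.1% and 54.0% in AD. EPHB1, an ephrin receptor, held 15 of 23 regions of a tract at chr3:135055294-135385636, with 1.68% and 0.190% covered in AI and 63.4% and 42.5% in AD. DLC1, a GTPase-activating protein, held 9 of 22 regions of a tract at chr8:12878026-13190933, with 7.38% and 7.80% in AI and 72.0% and 57.3% in AD. In all 12 of the largest tracts both AI lists were below both AD lists, which the choice of regions favours.

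The genes of these tracts that were in the RNA table held almost no RNA. Many of their noncoding RNAs were not in it, and some tracts had no gene there, so RNA from those was not measured here. IRX1 was at 0 in 10 of the 12 RNA-seq libraries and at 0.06 and 0.05 RPKM (reads per kilobase of gene, scaled to library size) in 1 AD mock and 1 AD siEZH2 library. OPCML did not exceed 0.01 RPKM, NTRK3 0.02 RPKM and EPHB1 0.04 RPKM in any library. Only the noncoding RNA LINC02063 was clearly listed, at 0.29 and 0.00 RPKM in untreated AI and 0.20 and 0.00 in untreated AD cells, and at 2.56 and 0.83 in AI mock and 2.58 and 0.44 in AD mock cells, with the first replicate the higher in each of these groups.

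**Figure D2:**
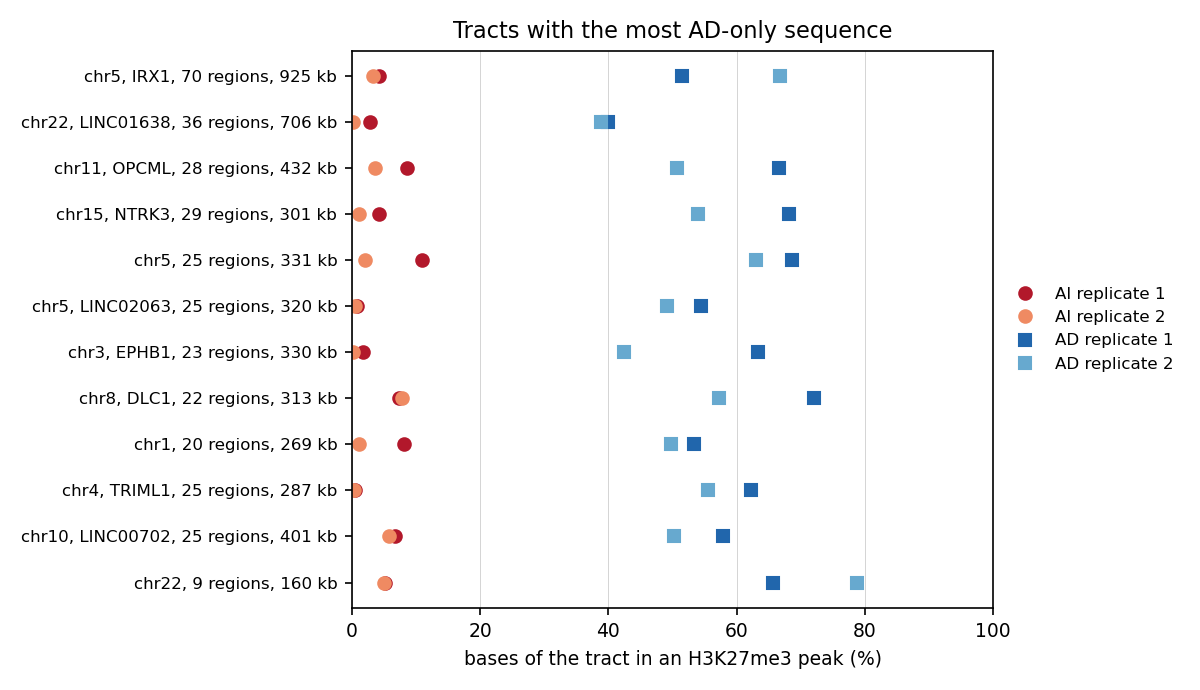
Share of bases in an H3K27me3 peak (horizontal axis, %) in the 4 lists for the 12 tracts with the most AD-only sequence, labelled by chromosome, a gene in the tract where there is one, number of regions and span in kb. AI lists (circles) lie at 10.9% or below and AD lists (squares) at 38.9% or above.

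The regions were unevenly spread over chromosomes. Chromosome 5 had the most, 335 regions and 13.1% of the bases marked in both AD lists, and chromosome 22 had the highest share of such bases, 15.3%. Chromosome 21 had 15 regions (1.80%) and chromosome 9 had 32 (4.31%). Chromosome 9 was the reverse case, with 320 AI-only regions, found by the same rule with the cell forms exchanged, that made up 18.6% of the bases marked in both AI lists. The single longest region was chr17:74643840-74660579 (16740 bases), in no annotated gene.

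EZH2 occupancy was not used to choose the regions. An EZH2 peak of the AI list overlapped 2.41% of the 3150 AD-only regions, against 17.4% for AD replicate 1 and 3.68% for AD replicate 2. A peak of either AD list was found at 631 regions, 20.0% (Wilson 95% interval 18.7% to 21.5%, which covers counting error only). Both AD lists had a peak at the same base in 12 regions, 0.381%. Of the 4331 AI-only regions, 1.43% had an AI EZH2 peak, and 3.93% and 1.59% had a peak of AD replicates 1 and 2. Of the 9089 regions marked in all 4 lists, 4.27% had an AI peak, and 19.4% and 4.72% had a peak of AD replicates 1 and 2. In each of the 3 EZH2 lists the AD-only regions thus stood between the other classes, close to the class marked in all 4 lists in the AD lists. The AI list and AD replicate 2 gave similar shares for AD-only regions, 2.41% and 3.68%, and AD replicate 1, with 53638 peaks over 28.9 Mb, stood apart from them (11852 peaks over 5.50 Mb in AI and 12317 over 5.69 Mb in AD replicate 2). With 1 AI library no test was made, and most of the 20.0% rests on AD replicate 1.

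Longer AD-only regions had EZH2 peaks more often. Among the 788 shortest regions (2000 to 2242 bases) 8.76% had a peak of AD replicate 1, and among the 788 longest (3388 to 16740 bases) 30.8%, while for AD replicate 2 the shares were 1.02% and 7.61%. A longer region offers more room for a peak, so the share of bases was also taken: in AD replicate 1 it was 2.15% in the shortest and 4.02% in the longest regions, and in AD replicate 2 it was 0.200% and 0.678%. By distance to an AI H3K27me3 peak, the share of regions with a peak of AD replicate 1 was 21.2% for those that touched an AI peak, 16.1% for those with one within 5 kb and 17.3% for those without. For AD replicate 2 these shares were 2.31%, 4.63% and 3.47%, so the replicates gave no common order.

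**Figure D3:**
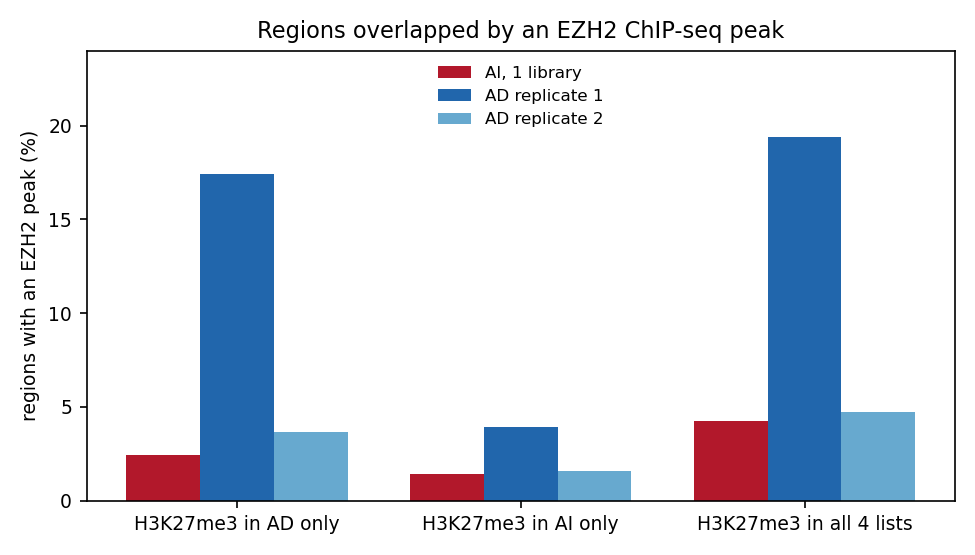
Share of regions overlapped by at least 1 base of an EZH2 peak (vertical axis, %), for 3 classes of H3K27me3 region and the 3 EZH2 lists. Bars for AD-only regions stand at 2.41% in AI, 17.4% in AD replicate 1 and 3.68% in AD replicate 2.

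Most AD-only regions lay away from gene starts. A gene was overlapped by 1822 regions (57.8%), a protein-coding one by 1313 (41.7%). Outside chromosome 8, for which gene starts were not used here, 127 of 2902 regions (4.38%) had a gene start within 1 kb, against 4.64% of AI-only regions and 6.43% of regions in all 4 lists. The 130 genes concerned, called start genes below, were 46 protein-coding genes and 84 long noncoding RNAs, and for 95 of them a start lay inside the region. A further 831 genes overlapped a region without starting there (body genes), of which 409 were protein coding. These body genes were long: the protein-coding ones had a median length of 260609 bases, against 24476 for all protein-coding genes, and a long gene is more likely to overlap a region wherever it lies.

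Among the start genes, GAD2 had the longest region at a protein-coding start, 11807 bases at chr10:26208832-26220638, with EZH2 peaks over 2217 and 709 bases in the AD lists and none in the AI list. Within 5 kb on either side of its start the AI lists covered 0% and 0%, and the AD lists 97.2% and 99.3%. KRT79, a type II keratin of hair follicles, had a region of 10577 bases at chr12:52830986-52841562, with 0% and 0% covered around its start in AI and 83.7% and 99.3% in AD. The other regions among the 10 longest with a gene start belonged to noncoding RNAs: CDH4-AS2, SOX1-OT, LINC02162, LOC124903086, LOC105370957, LOC107984202, MIAT and KIF26B-AS1. Transcription factors among the start genes included PAX6 and DLX6, which pattern eye and forebrain or limb, CRX of photoreceptors, and the nuclear receptors ESR1 (oestrogen receptor alpha) and ESRRG. At ESR1 the AI lists covered 0% and 41.6% of the 10 kb around the start, against 89.6% and 98.9% in the AD lists, and at PAX6 0% and 56.7% against 81.0% and 92.7%; AI replicate 2 was thus marked near both starts, outside the regions. DPPA2 and DPPA4, neighbouring genes of pluripotent cells, had 0% and 0% (DPPA2) and 20.5% and 0% (DPPA4) covered in AI, and 94.0% and 89.9% (DPPA2) and 91.3% and 99.5% (DPPA4) in AD. SPRY2, an inhibitor of receptor tyrosine kinase signalling, started inside a region of 5243 bases on chromosome 13. Regions of 32 start genes had an EZH2 peak of AD replicate 1, 8 of AD replicate 2, 4 of both, and 2 of the AI list.

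Of the gene lists examined, neither the 14 writers and erasers of H3K27me3, nor 19 genes that the prostate literature names as silenced by EZH2, nor 20 androgen-induced genes had a member at an AD-only region. For comparison, 130 of 26246 genes with an annotated start were start genes. Of the 21607 matched genes of the RNA table, 445 were body genes. Absence from lists as short as these therefore carries little weight. Of 190 developmental factors, chosen by family names such as PAX, SOX and DLX, PAX6 and DLX6 were start genes and PAX5, SOX5 and SOX9 were body genes; none of these passed the expression filter. Of 262 genes of neuronal adhesion and ion channel families, 29 were body genes, among them GRIN2A, KCNQ3, CACNA1C, CDH2, CDH4 and PCDH15. Of 499 ZNF genes, 5 were body genes. Gene length, which raises such overlaps, was not allowed for in any list. Over all genes of each list that could be tested, with 22.2% and 12.4% of all genes tested called higher and lower in untreated AI cells and 12.2% and 43.5% in mock AI cells, the calls were 3 higher and 2 lower of 13 writers and erasers in untreated cells and 1 and 9 in mock cells; 4 and 4 of 12, and 2 and 6, of the EZH2-silenced genes; 6 and 7 of 17, and 1 and 9, of the androgen-induced genes; 12 and 16 of 66, and 5 and 45, of the developmental factors; 6 and 16 of 56, and 2 and 37, of the neuronal genes; and 59 and 29 of 352, and 15 and 204, of the ZNF genes. Among the writers, SUZ12 had 6.44 and 7.50 RPKM in untreated AI against 3.13 and 4.52 RPKM in untreated AD cells (0.80, limma adjusted p = 0.00608). After mock transfection its order was reversed, at 3.63 and 3.31 RPKM in AI against 6.35 and 5.23 RPKM in AD cells (−0.66, limma adjusted p = 0.00876). EED had 2.92 and 2.01 RPKM in mock AI against 10.53 and 11.86 RPKM in mock AD cells (−1.99, limma adjusted p = 3.89e-05). Untreated, EED had 9.32 and 8.07 RPKM in AI against 7.45 and 5.17 RPKM in AD cells and was not called (0.45, limma adjusted p = 0.128).

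RNA values are RPKM, and differences between groups are in log2(RPKM + 0.5), from limma over 14227 genes with at least 0.5 RPKM in 2 of the 12 libraries. Such a difference understates the change of genes at low levels. In bulk samples, fewer expressing cells and less RNA per cell cannot be told apart. Luminal prostate markers such as KLK3 and KRT8 were present in every group (10 of 10 at 0.5 RPKM or more, summed 2647 to 3805 RPKM in AI libraries and 3321 to 7044 RPKM in AD libraries), and blood markers summed to at most 0.300 RPKM in AI and 0.410 RPKM in AD libraries. The 4 basal markers summed to 2.75 to 7.05 RPKM in AI and 3.26 to 12.2 RPKM in AD libraries with KRT5 and TP63 at 0 in untreated cells, the 5 stromal markers to 1.12 to 2.96 and 2.52 to 3.47 RPKM, and the 3 endothelial markers to 0.100 RPKM at the lowest in AI and 3.53 RPKM at the highest in AD libraries. EZH2 itself, the target of the siRNA, had 10.11 and 12.62 RPKM in untreated AI against 5.21 and 6.94 RPKM in untreated AD cells (0.86, adjusted p = 0.00606), a call lost when only these 4 libraries were fitted (adjusted p = 0.0636). After mock transfection it had 7.07 and 5.44 RPKM in AI against 10.95 and 12.48 RPKM in AD cells (−0.86, adjusted p = 0.00286), the reverse order, a call lost with quantile or TMM scaling (adjusted p up to 0.155). After siEZH2 it had 3.60 and 4.33 RPKM in AI, against 7.07 and 5.44 RPKM after mock (−0.59, adjusted p = 0.126), and 11.52 and 10.73 RPKM in AD, against 10.95 and 12.48 RPKM after mock (−0.07, adjusted p = 1.00). In the AD libraries labelled siEZH2 the target was therefore at the level of the mock libraries, which bears on every siEZH2 value below.

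The start genes were nearly silent in both cell forms. Of the 130, 40 were in the RNA table (32 protein coding, 8 noncoding). They were at 0 RPKM in 17 and 25 of 40 cases in the untreated AI libraries and in 28 and 31 of 40 in the untreated AD libraries, and only 2 and 3 genes reached 0.5 RPKM in untreated AI, against 0 and 0 in untreated AD cells. For comparison, 44.2% and 42.8% of all 28071 genes reached 0.5 RPKM in untreated AI and 43.8% and 43.1% in untreated AD libraries. Of 269 genes that start at regions marked in all 4 lists, 4.46% and 4.46% did so in AI and 5.95% and 6.32% in AD. Low RNA was thus not particular to AD-only start genes. Of 108 genes that start at AI-only regions, 21.3% and 24.1% reached 0.5 RPKM in untreated AI and 24.1% and 22.2% in untreated AD libraries. After mock transfection 4 and 5 start genes reached it in AI and 1 and 2 in AD cells, and after siEZH2 3 and 3 in AI and 2 and 3 in AD cells. Of the 35 that did not pass the filter, 24 stayed at or below 0.1 RPKM in every library, ESR1 at 0.02 RPKM or less and GAD2 at 0.02 RPKM or less. SPRY2 was the most expressed of these in untreated cells, with 0.48 and 0.62 RPKM in AI against 0.00 and 0.06 RPKM in AD cells; it was not tested.

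The 5 start genes that passed the filter were COL12A1, UGT8, TRIB2, UNC13C and BMP4, and 3 of the 5 passed only through AI libraries, so that they had to be higher there in some group. In untreated cells 3 were called higher in AI (adjusted p under 0.05) and 0 lower, where 22.2% of all genes tested were called higher and 12.4% lower. With limma's unadjusted p under 0.05 all 5 were higher, where 6346 of 14227 genes passed in either direction. With 5 genes these counts carry little weight beside the single genes.

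COL12A1 had 3.61 and 4.23 RPKM in untreated AI cells, against 0.18 and 0.17 RPKM in untreated AD cells (2.71 ± 0.168 SE, adjusted p = 5.43e-06). Its start lies 896 bases outside a region of 2082 bases, chr6:75206949-75209030, that touches an AI peak. After mock transfection the order was reversed, with 1.02 and 1.42 RPKM in AI against 17.68 and 19.28 RPKM in AD cells (−3.47 ± 0.168, adjusted p = 5.54e-07). The siEZH2 libraries resembled the mock ones, at 1.20 and 0.82 RPKM in AI and 17.19 and 17.22 RPKM in AD cells (−3.56 ± 0.168, adjusted p = 5.33e-07). The level in AD cells thus depended on which set of AD libraries was read: the untreated ones were near 0 and the transfected ones held the highest values of this gene.

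UGT8, whose start lies inside a region of 3113 bases at chr4:114597426-114600538, had 1.16 and 1.59 RPKM in untreated AI, against 0.00 and 0.01 RPKM in untreated AD cells (1.88 ± 0.199, adjusted p = 0.000136). After mock transfection it had 0.24 and 0.43 RPKM in AI and 0.45 and 0.49 RPKM in AD cells, which missed the threshold (−0.23 ± 0.199, adjusted p = 0.363). The nearest AI peak lay 30395 bases from that region, and none of either AI list fell within 5 kb of the start, against 31.4% and 47.5% covered in the AD lists.

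TRIB2 started inside a region of 4195 bases, chr2:12716022-12720216, 110231 bases from the nearest AI peak and with an EZH2 peak of AD replicate 1 over 473 bases. It was the only start gene called higher in AI in both the untreated and the mock comparison, with 0.22 and 0.21 RPKM in untreated AI against 0.01 and 0.00 RPKM in untreated AD cells (0.50 ± 0.165, adjusted p = 0.0403). The mock libraries had 0.78 and 0.70 RPKM in AI against 0.09 and 0.07 RPKM in AD cells (1.10 ± 0.165, adjusted p = 0.000365). The groups did not overlap in either set. The untreated call is near the threshold and was lost in 7 of 10 other settings, including each one that left out 1 of the 4 libraries (adjusted p between 0.00865 and 0.123 over the 10); the mock call was kept in 11 of 11.

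UNC13C started inside a region of 2091 bases, chr15:53977601-53979691, that ends 708 bases from an AI peak. It had 0.22 and 0.13 RPKM in untreated AI and 0.00 and 0.00 RPKM in untreated AD cells (0.43 ± 0.190, adjusted p = 0.110), and 1.23 and 1.49 RPKM in AI mock against 0.01 and 0.01 RPKM in AD mock cells (1.86 ± 0.190, adjusted p = 3.23e-05). AD cells were at 0.02 RPKM or below in all 6 of their libraries. BMP4, a secreted ligand of the TGF-beta family whose start lies 345 bases from a region of 3320 bases on chromosome 14, had 0.26 and 0.19 RPKM in untreated AI against 0.00 and 0.02 RPKM in untreated AD cells (0.51 ± 0.204, adjusted p = 0.0829), and 0.53 and 0.74 against 0.35 and 0.63 RPKM after mock transfection (0.21 ± 0.204, adjusted p = 0.421). The BMP4 region touches an AI peak. Around the BMP4 start the AI lists covered 0% and 36.4% of 10 kb, against 86.1% and 75.9% in the AD lists.

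In the mock comparison 2 start genes were called higher (TRIB2 and UNC13C) and 1 lower (COL12A1), where 12.2% of all genes were called higher and 43.5% lower. Between siEZH2 libraries 2 were higher (the same genes, TRIB2 and UNC13C) and 3 lower (COL12A1, UGT8 and BMP4), where 10.6% of all genes were higher and 47.1% lower.

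**Figure D4:**
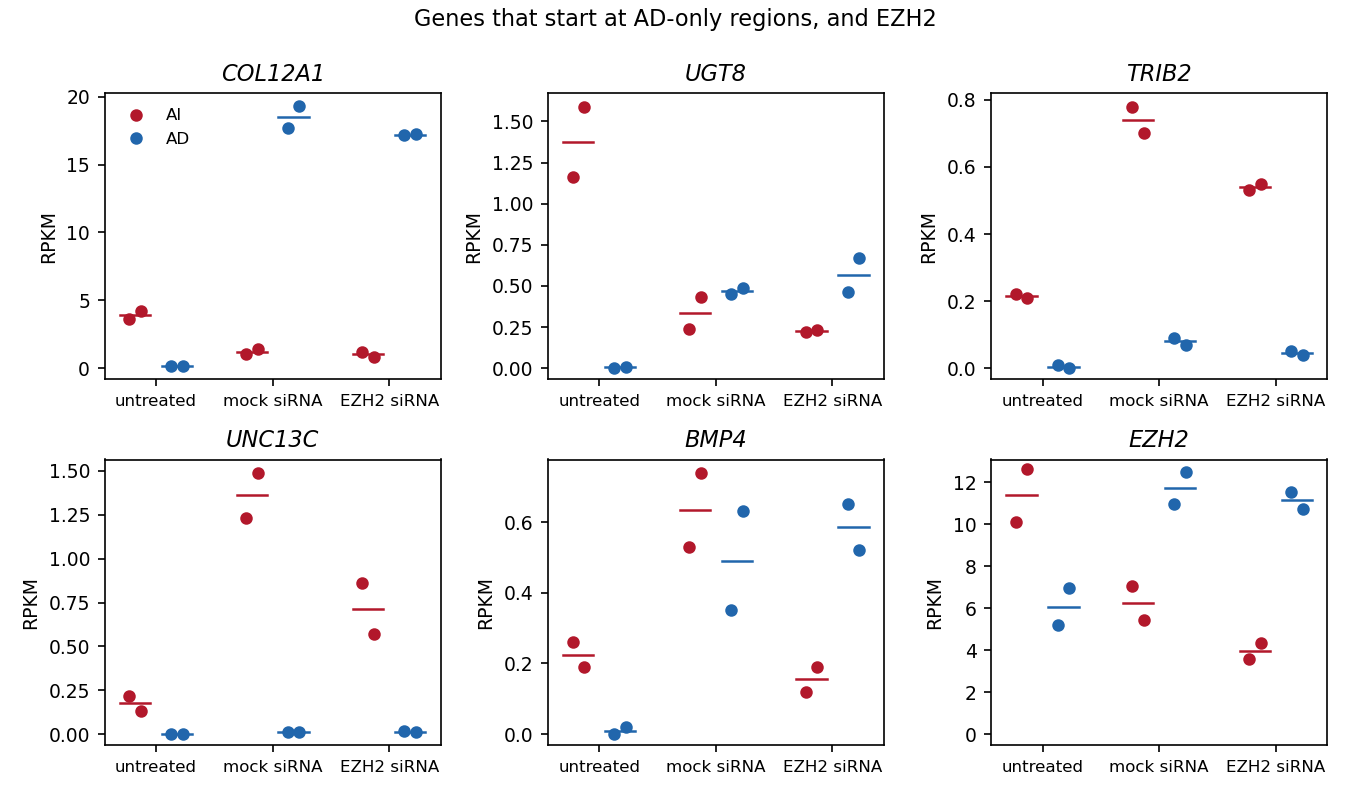
RPKM (vertical axis, linear, a scale per gene) of the 5 tested start genes and of EZH2 in each RNA-seq library, by treatment; points are libraries, AI left of AD in each pair, and lines are means of 2. COL12A1 stands at 3.61 and 4.23 RPKM in untreated AI and at 17.68 and 19.28 RPKM in mock AD cells.

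EZH2 siRNA did not move the start genes past the threshold. In AI cells 0 of the 5 were called between siEZH2 and mock, with limma's unadjusted p under 0.05 for 2 of them, where 0.0703% of all genes were called higher and 1.39% lower. In AD cells 0 of the 5 were called, with 0 at an unadjusted p under 0.05, where 0.0141% of all genes were higher and 0% lower. UNC13C, for example, had 0.86 and 0.57 RPKM in AI siEZH2 and 1.23 and 1.49 RPKM in AI mock cells (−0.62 ± 0.190, adjusted p = 0.124). The 83 tested body genes gave 0 calls in both cell forms as well, with 8 in AI and 1 in AD at an unadjusted p under 0.05. Over all 14227 genes, limma's unadjusted p was under 0.05 for 2675 in AI and 544 in AD cells.

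Body genes were also mostly silent. At least 0.5 RPKM was reached by 53 and 57 of 445 listed genes in untreated AI and by 39 and 40 in untreated AD cells, but after mock transfection by 48 and 47 in AI and by 69 and 67 in AD cells. The filter left 83, of which 12 passed through AI libraries alone and 19 through AD libraries alone. In untreated cells 32 of the 83 (38.6%) were called higher in AI and 8 (9.64%) lower, beside 22.2% and 12.4% of all genes, and their median difference was 0.37, against 0.13 over all genes. In the mock comparison 13 (15.7%) were higher and 39 (47.0%) lower, beside 12.2% and 43.5%, with medians of −0.47 and −0.41: here the body genes followed the shift of all genes. That shift depends on scaling. With quantile normalization the median of all genes was 0.03 untreated and 0.02 in mock libraries, and with trimmed-mean (TMM) scaling −0.00 and 0.01. The body genes then gave 30 higher and 7 lower (quantile) or 27 and 11 (TMM) in untreated cells, and 28 higher and 19 lower (quantile) or 20 and 25 (TMM) in mock cells. Over all genes, higher and lower calls were then 16.4% and 16.1% (quantile) or 14.4% and 17.4% (TMM) in untreated cells, and 24.2% and 24.8% (quantile) or 27.2% and 26.5% (TMM) in mock cells. Among body genes the corresponding shares were 36.1% and 8.43% or 34.2% and 13.9% untreated, and 33.7% and 22.9% or 25.3% and 31.6% in mock cells. Without the filter, 53 of 445 body genes (11.9%) were called higher in untreated AI cells, near the 9.73% of all genes.

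The largest rises in untreated AI cells were at BASP1, MAP2 and OLFM1. BASP1, a membrane-bound protein of nerve terminals with 3 AD-only regions in its body, had 22.34 and 16.55 RPKM in untreated AI against 0.00 and 0.03 RPKM in untreated AD cells (5.26 ± 0.227, adjusted p = 6.30e-07). MAP2, a microtubule-associated protein of dendrites with 1 region, had 8.49 and 11.26 RPKM in AI against 0.10 and 0.21 RPKM in AD cells (3.98 ± 0.186, adjusted p = 8.76e-07). OLFM1, a secreted olfactomedin protein of the nervous system, had 3.47 and 3.72 RPKM in AI against 0.08 and 0.11 RPKM in AD cells (2.78 ± 0.188, adjusted p = 9.59e-06), with a region of 5361 bases at chr9:135091846-135097206 that starts 4178 bases from its nearest gene start. The OLFM1 region lay 233 bases from an AI H3K27me3 peak. This gap was 145454 bases at MAP2, and 1337, 5601 and 34422 bases at the regions of BASP1. After mock transfection BASP1 had 0.00 and 0.08 RPKM in AI against 0.53 and 0.98 RPKM in AD cells, MAP2 1.41 and 1.11 against 1.20 and 1.11 RPKM, and OLFM1 0.30 and 0.15 against 1.48 and 1.58 RPKM. BASP1 and OLFM1 were called lower in mock AI cells (−1.20, adjusted p = 0.00151, and −1.49, adjusted p = 0.000122), and MAP2 was called in neither direction (0.08, adjusted p = 0.728) except as higher with quantile normalization (adjusted p = 0.0144). The sum of the 4 neuroendocrine markers CHGA, SYP, ENO2 and INSM1 did not rise with these genes. It was 7.28 and 8.07 RPKM in untreated AI and 32.6 and 40.1 RPKM in untreated AD cells. The sum does not describe each marker: only 2 of the 4 reached 0.5 RPKM in either form. INSM1 was at 0 in untreated AI and not in untreated AD cells, and CHGA was at 0 in untreated AD and not in untreated AI cells.

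HMX1 and KLF6, both transcription factors, were higher in AI in either set. HMX1, a homeobox factor of the developing eye and ear, had 2.22 and 1.98 RPKM in untreated AI against 0.05 and 0.02 RPKM in untreated AD cells (2.28 ± 0.181, adjusted p = 2.65e-05), and 7.29 and 8.03 against 1.36 and 1.09 RPKM after mock transfection (2.24 ± 0.181, adjusted p = 8.03e-06). KLF6, a Krüppel-like zinc finger factor, had 4.68 and 4.78 against 0.77 and 0.75 RPKM untreated (2.05 ± 0.174, adjusted p = 3.83e-05), and 9.25 and 8.59 RPKM in AI against 0.79 and 1.30 RPKM in AD cells after mock transfection (2.63 ± 0.174, adjusted p = 2.73e-06). The regions lay at the far end of both genes, 24937 bases (HMX1, chr4:8843899-8846902) and 8630 bases (KLF6, chr10:3773609-3776579) from the nearest start. NBAS, a protein of Golgi-to-ER transport with 7 regions in its body, was higher in both as well, at 3.36 and 3.07 against 1.99 and 2.29 RPKM untreated (0.49, adjusted p = 0.0197), a call lost in 5 of 11 other settings, among them those without AI replicate 1 or AD replicate 1 (adjusted p 0.0198 to 0.133), and at 6.62 and 5.62 against 1.45 and 1.60 RPKM after mock transfection (1.71, adjusted p = 7.28e-06). DOK6, MSRA, RUNDC3B and SLC27A6 were the other genes called higher in both, 7 in all.

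In untreated cells fewer body genes were lower in AI (8) than higher (32). TFF1, a secreted trefoil peptide known as an oestrogen-induced gene, had 0.39 and 0.14 RPKM in untreated AI against 11.15 and 4.23 RPKM in untreated AD cells (−3.30 ± 0.569, adjusted p = 0.00200), and 0.20 and 0.28 against 0.19 and 0.30 RPKM after mock transfection. The AD lists covered 31.0% and 86.7% of this gene and the AI lists 0% and 0%, so the mark was called in the cells with the higher untreated RNA. PLOD2, a lysyl hydroxylase of collagen, had 0.02 and 0.00 RPKM in untreated AI against 1.95 and 3.52 RPKM in untreated AD cells (−2.62 ± 0.259, adjusted p = 9.24e-05), and after mock transfection 1.76 and 1.59 against 0.94 and 0.69 RPKM (0.73 ± 0.259, adjusted p = 0.0360, lost in 5 of 11 settings, among them each that left out 1 library). COL13A1, a transmembrane collagen, likewise had 0.16 and 0.17 against 0.63 and 0.65 RPKM untreated (−0.78, adjusted p = 0.0127, but 0.061 with only the 4 libraries) and 7.65 and 8.10 against 3.58 and 3.36 RPKM after mock transfection (1.08, adjusted p = 0.00111). MSI1, an RNA-binding protein of neural stem cells, was lower in AI in both, with 0.49 and 0.55 against 2.90 and 2.39 RPKM untreated (−1.62, adjusted p = 0.00388) and 0.64 and 0.37 against 1.97 and 2.97 RPKM after mock transfection (−1.56, adjusted p = 0.00225). ABCG1, a cholesterol exporter, had 1.39 and 1.26 against 2.33 and 2.37 RPKM untreated (−0.64, adjusted p = 0.00767, but 0.0751 with only the 4 libraries); its mock difference of −0.42 (adjusted p = 0.0309) turned to 0.17 with quantile normalization and 0.06 with TMM scaling, and lost the threshold without AI replicate 2 or either AD replicate. LINC02055 and MAGI2 were the other genes called lower in both, 4 in all.

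The largest falls of body genes in mock AI cells were at EYA2, RPS6KC1, KIRREL1, IQSEC1 and SUSD4, of which KIRREL1 and SUSD4 were called higher in untreated AI cells. EYA2, a transcriptional co-activator and phosphatase, had 0.29 and 0.35 RPKM in mock AI against 9.97 and 9.30 RPKM in mock AD cells (−3.63 ± 0.180, adjusted p = 6.05e-07), and 5.40 and 3.86 against 3.87 and 2.99 RPKM untreated (adjusted p = 0.137). RPS6KC1, a kinase-like protein of endosomes, had 1.02 and 1.11 against 5.33 and 6.56 RPKM (−2.04, adjusted p = 1.79e-05), and IQSEC1, an exchange factor for ARF GTPases, 1.41 and 1.05 against 4.92 and 5.64 RPKM (−1.75, adjusted p = 9.32e-06). KIRREL1, an adhesion protein of the immunoglobulin superfamily, had 0.10 and 0.07 against 1.78 and 1.98 RPKM in mock cells (−2.02, adjusted p = 6.47e-06) and 0.89 and 0.85 against 0.06 and 0.06 RPKM untreated (1.29, adjusted p = 0.000307). SUSD4, a complement regulator, had 3.45 and 3.12 against 11.83 and 11.00 RPKM in mock cells (−1.65, adjusted p = 3.11e-06) and 4.36 and 4.14 against 2.65 and 2.85 RPKM untreated (0.55, adjusted p = 0.00486, but 0.0965 with only the 4 libraries).

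**Figure D5:**
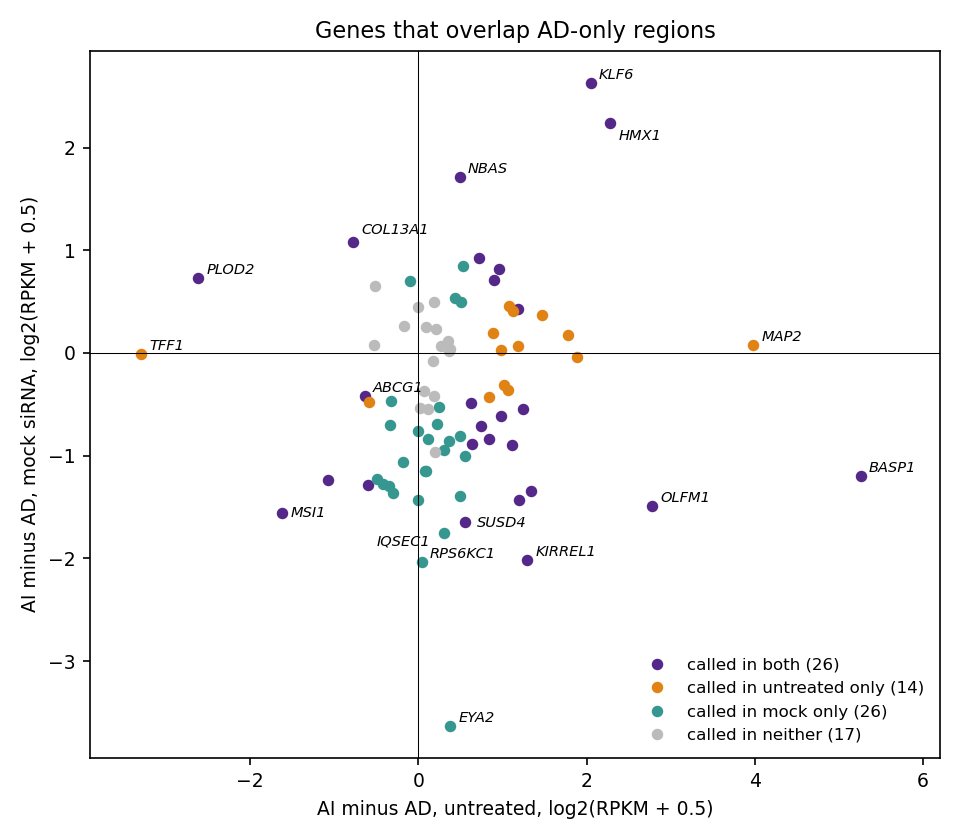
Difference AI minus AD in untreated cells (horizontal axis) and in mock-transfected cells (vertical axis), both in log2(RPKM + 0.5), for the 83 tested genes that overlap an AD-only region; colours give the comparison in which limma's adjusted p was under 0.05. 26 genes were called in both, 14 in untreated cells alone, 26 in mock cells alone and 17 in neither.

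Of the 26 body genes called in both comparisons, 7 were higher and 4 lower in AI in both, 13 were higher untreated and lower after mock transfection, and 2 were lower untreated and higher after mock transfection. How many of all genes had each pair of calls was not counted, so these counts are not read as particular to body genes. Taken singly, 22.2% of all genes were called higher in untreated AI and 43.5% lower in mock AI cells. The difference between the effects was itself called for 49 of the 83 genes (59.0%), beside 50.2% of all genes. For the 15 genes with opposite calls the direction depended on which RNA-seq set was read. Whether the ChIP cells match the untreated or the transfected AD libraries cannot be told from the labels.

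EZH2-bound RNA was compared with IgG in AD cells over 13667 genes. For the 4 start genes tested there were 0 higher and 0 lower calls by limma, 0 also at an unadjusted p under 0.05, where 0% of all genes were higher and 0% lower and 1383 had an unadjusted p under 0.05. COL12A1 RNA had 46.72 and 35.22 RPKM in the AI EZH2 RIP libraries, against 9.28 and 9.12 RPKM with IgG, and 4.61 and 1.00 RPKM in the AD EZH2 RIP libraries, against 0.44 and 0.49 RPKM with IgG. MAP2 had 12.40 and 10.75 RPKM with EZH2 in AI, against 5.25 and 1.20 RPKM with IgG, and 0.22 and 0.22 RPKM with EZH2 in AD, against 0.00 and 0.21 RPKM with IgG. UNC13C had 4.65 and 2.50 RPKM with EZH2 in AI, against 1.25 and 0.00 RPKM with IgG, and at most 0.04 RPKM in any AD library. For COL12A1, MAP2 and UNC13C the RIP levels were thus high in the cell form where the untreated RNA was also the higher. Other genes with higher untreated RNA in AI had low RIP levels there. BASP1 had 0.19 and 0.89 RPKM with EZH2 in AI and 0.13 and 0.00 RPKM in AD. UGT8 had 0.67 and 0.85 RPKM with EZH2 in AI, below its 1.42 and 5.34 RPKM with IgG. The IgG libraries listed many genes at 0 (57.7% and 72.2% of all genes in AI, 61.8% and 35.4% in AD), so a ratio to IgG is uncertain for genes at low levels.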

How the data were processed

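The members and gene lists were chosen with earlier results of these data known. H3K27me3 and EZH2 peak lists carried a score per peak, as deposited by the authors; GRCh38, cutadapt and Bowtie2 are named for ChIP-seq, and TopHat2 and edgeR for RNA libraries, per the submitters' processing notes, with no versions. Which peak caller, gene counter and annotation release were used is not given in the sources used here. RNA-seq and RIP-seq values are RPKM as deposited by the authors, with 2 decimals; the depth per library is unknown from them. The design had allowed for counts, but no counts were used.

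From these, regions were intersected in base pairs (Python 3.11.15, pandas 2.3.3). Gene starts and bodies were those of RefSeq GRCh38.p14 (33725 starts of 26246 genes), which has the build of the files; 21607 of 28071 RNA table genes were matched to it by symbol or synonym and 6464 were not. Groups were compared with limma 3.58.1 (R 4.3.3) on log2(RPKM + 0.5), fitting all 12 RNA-seq libraries (or all 8 RIP-seq libraries) with a coefficient for each group, with genes of at least 0.5 RPKM in 2 libraries and Benjamini-Hochberg adjustment over all genes tested. The script was tested on simulated data. Reads of overlapping or antisense genes cannot be told apart, since strand use in counting is not given.

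Named genes were EZH2, the tested start genes, up to 5 rises and 5 falls of body genes per comparison among called genes with at least 1 RPKM on average and groups that do not overlap, and the start genes of the 10 longest regions with one; the others were chosen after their values were seen. Some genes and markers are not reported here, and marker sums leave them out. Alternatives covered region length, peak score, gap joining, gene-start window, pseudocounts of 0.1 and 1, filter, quantile and TMM scaling, a replicate block, the 4 libraries alone and each library left out.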

Additional observations from a re-analysis of the deposited data

Results flagged for a closer look

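For 16 of the genes named above, the difference AI minus AD after mock transfection was not the same as in untreated cells, by limma's test of the difference of the differences with Benjamini-Hochberg adjustment. Many of these genes were named for a large difference in 1 of the comparisons, which favours such a call. Of all 14227 genes tested, 50.2% were called in this test, so the 16 are not read as particular to the regions. Values are mock minus untreated, on the log2 scale, over 2 libraries per group. Mock differences were below the untreated ones at BASP1 (−6.46), COL12A1 (−6.18), OLFM1 (−4.28), EYA2 (−4.00), MAP2 (−3.89), KIRREL1 (−3.31), SUSD4 (−2.20), UGT8 (−2.11), RPS6KC1 (−2.07), IQSEC1 (−2.05) and EZH2 (−1.72). They were above the untreated ones at PLOD2 (3.35), TFF1 (3.29), COL13A1 (1.85), UNC13C (1.43) and NBAS (1.21). Untreated and transfected libraries also differ in all genes, with a median difference AI minus AD of −0.41 in mock and 0.13 in untreated cells, and the part of this shift in the values above was not tested.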

How the results depend on the processing

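The number of AD-only regions moved most with the minimum length, to 12830 at 1 kb and 261 at 5 kb; leaving out 1 H3K27me3 list gave 4770 to 8545, and keeping only regions with no AI peak within 5 kb, a setting added after seeing the data, gave 1702. Their share with an AD EZH2 peak was 3.68% to 17.4% with 1 AD list left out and 1.78% with EZH2 peaks of score 100 or more. Start genes numbered 267 with a 5 kb window, 300 and 17 with regions of at least 1 kb and 5 kb, and 59 without an AI peak within 5 kb. Untreated start genes called higher were 5 with a pseudocount of 0.1 and 8 with the 5 kb window. In mock cells 1 was called higher without near AI peaks, and 2 were lower with no filter, 4 with the 5 kb window, and 0 with starts inside a region or without near AI peaks. In siEZH2 cells 1 was higher without near AI peaks; 1 was lower with quantile or TMM scaling, starts inside a region, or no near AI peaks, 5 with the 5 kb window, and 1 to 2 with a library left out (1 without AI replicate 1). Untreated body genes higher were 53 with no filter and 18 with only the 4 libraries; those lower were 3 with only the 4 libraries, 4 without near AI peaks and 5 to 7 with a library left out (5 without AD replicate 1). Mock body genes higher were 28 (quantile), 20 (TMM) and 4 to 8 with any 1 of the 4 libraries left out; those lower were 63 with no filter, 19 (quantile), 25 (TMM) and 23 without near AI peaks. With no filter, 11.9% of 445 body genes were higher untreated and 14.2% lower in mock cells, beside 9.73% and 22.5% of all genes. With only the 4 libraries, 31.6% of 57 body genes were higher and 5.26% lower untreated, beside 8.21% and 5.66% of all genes. Shares with quantile and TMM scaling are given above. For the other settings no share is given, so those counts are not read alone. The cause of each move was not tested, beyond fewer or more genes or regions entering. The mock difference of ABCG1 turned to 0.17 (quantile, adjusted p = 0.358) and 0.06 (TMM, adjusted p = 0.756). Over the named genes, 26 of 479 values lost the threshold, 4 gained it and 2 turned sign.

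The replicate numbers shared by AI and AD groups are not stated to pair them, and the differences between replicates correlated at 0.701 in untreated, 0.062 in mock and 0.009 in siEZH2 libraries. With a replicate block, body genes called were 31 higher and 7 lower untreated and 13 and 39 in mock cells, and start genes 2 higher untreated, without TRIB2. RPKM with 2 libraries per group limit the precision of every gene below about 0.5 RPKM.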
